A study of Mus musculus with 8 samples.

Results

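The water channels of the kidney and the receptor that controls them were described through 9 genes, *Aqp1*, *Aqp2*, *Aqp3*, *Aqp4*, *Aqp6*, *Aqp7*, *Aqp11*, *Avpr2* and *Fxyd4*. They were taken by gene name from the 55401 genes of the deposited table, which held 1 row for each of them. Kidney RNA came from 8 diabetic mice, with 1 library per mouse. Of these, 4 received recombinant FGF4 (rFGF4) and 4 received the vehicle, phosphate-buffered saline. Both groups were diabetic, and the table holds no group without diabetes, so each comparison asks what rFGF4 changed within diabetes. The labels and the design text name *db*/*db* mice, which lack a working leptin receptor, whereas the study's text on the sequencing names mice made diabetic with streptozotocin. Whether the expression values could decide between these models was not examined. For both models the study describes male mice given rFGF4 at 1 mg per kg body weight or vehicle by intraperitoneal injection every other day for 8 weeks. The *db*/*db* mice were 12 weeks old at the start. For the streptozotocin mice the study gives different doses and ages in different places, so neither is stated here. Mouse numbers follow the labels, which run 1, 2, 3 and 5 for rFGF4 and 2, 3, 4 and 5 for vehicle.

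Aquaporins are membrane proteins whose pores let water pass along an osmotic gradient, and some of them also pass glycerol or other small solutes. In the proximal tubule and the thin descending limb, AQP1 carries most of the constitutive water reabsorption. In the principal cells of the collecting duct, vasopressin binds the V2 receptor, cyclic AMP rises, protein kinase A phosphorylates AQP2, and vesicles carrying AQP2 fuse with the luminal membrane, while AQP3 and AQP4 let the water leave on the blood side. Diabetes with glucose in the urine brings osmotic diuresis, which makes these genes of interest in a diabetic kidney. The study reports that rFGF4 lowered blood glucose in *db*/*db* mice but not in the streptozotocin mice. No glucose values of the sequenced mice were used here, so a difference in glucose between the groups was not examined.

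*Aqp2* and *Aqp6* are neighbours. In the GENCODE M21 annotation of GRCm38, *Aqp2* (ENSMUSG00000023013) lies on the plus strand at chr15:99579055-99584547. *Aqp5* follows it after 6234 bases, and *Aqp6* (ENSMUSG00000043144) follows *Aqp5* after a further 6570 bases, at chr15:99601400-99605477. *Aqp3* (ENSMUSG00000028435) lies on the minus strand at chr4:41092722-41098183, 44582 bases from *Aqp7* at chr4:41033074-41048139. The RefSeq table of promoter sequences (GRCm38.p6) held 8 of the 9 members. The 250 bases before the RefSeq start of *Aqp2*, *Aqp3* and *Aqp6* are shown because these are the 3 members of highest level with a main site in the collecting duct. Each reads 5′ to 3′ on the strand of its gene, from chr15:99578806-99579055 for *Aqp2*, from the minus strand of chr4:41098184-41098433 for *Aqp3* and from chr15:99600950-99601199 for *Aqp6*. Capitals mark the matches to the motifs searched.
Aqp2: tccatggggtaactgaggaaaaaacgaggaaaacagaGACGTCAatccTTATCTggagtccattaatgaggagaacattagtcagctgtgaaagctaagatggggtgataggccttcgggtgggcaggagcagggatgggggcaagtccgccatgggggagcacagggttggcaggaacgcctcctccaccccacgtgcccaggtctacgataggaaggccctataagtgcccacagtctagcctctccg
Aqp3: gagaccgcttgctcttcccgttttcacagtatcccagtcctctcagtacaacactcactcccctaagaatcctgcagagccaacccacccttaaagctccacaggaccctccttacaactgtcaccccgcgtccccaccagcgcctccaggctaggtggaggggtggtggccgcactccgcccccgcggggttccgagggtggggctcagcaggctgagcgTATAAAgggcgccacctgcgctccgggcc
Aqp6: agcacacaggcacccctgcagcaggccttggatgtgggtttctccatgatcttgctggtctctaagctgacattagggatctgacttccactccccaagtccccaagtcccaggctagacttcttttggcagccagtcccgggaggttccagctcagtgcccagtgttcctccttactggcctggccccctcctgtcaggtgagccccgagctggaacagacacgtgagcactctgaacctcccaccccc

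The motifs were searched on both strands from 250 bases before to 50 bases after the start. The stretch before *Aqp2* held the 7-letter core of the cyclic AMP response element, GACGTCA, with its first base at position -213, counted back from the start. A GATA motif, AGATAA, was read there on the opposite strand as TTATCT from position -202. The 2 matches do not overlap. *Aqp3* held a TATA box, TATAAA, from position -29. The stretch of *Aqp6* held none of the motifs. Among 32851 promoters of the same length, 3.21% held the core of the response element, 11.2% the GATA motif and 13.6% the TATA box. *Aqp7* also held a GATA motif and *Avpr2* a TATA box. The whole response element, TGACGTCA, which contains the core, was in 1.79% of promoters and in 0 members. These matches describe letters and not binding.

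Levels are the FPKM values of the authors, in which fragments are divided by exon length and by the mapped reads of the library, so that genes can be compared with each other. No read counts are in the table. Sequencing depth is therefore unknown, and no interval for counting error can be given. A test was run on the 15150 genes that reached 0.5 FPKM in 4 or more mice, and all 9 members were among them. Differences are on the log2(FPKM + 1) scale, as rFGF4 minus vehicle, which understates the change of low genes. They were tested with limma with Benjamini-Hochberg adjustment over all genes. Across those genes 0 had an adjusted p under 0.05 and 700 an unadjusted one. The summed FPKM of a library ranged from 389404 to 552600 and the share of mitochondrially encoded genes from 19.0% to 38.4%. One mouse stood apart, rFGF4 mouse 1, with the lowest mitochondrial share and proximal tubule markers that summed to 1701 FPKM against 4407 to 9704 in the other mice. In vehicle mouse 5 the immunoglobulin gene *Igkc* reached 22335 FPKM. Markers of the kidney were present in every mouse. Summed over its list, the proximal tubule (12 genes), thick ascending limb (6 genes), principal cell (9 genes) and intercalated cell (8 genes) markers were at 88.1 FPKM or more. The library protocol speaks of adipose tissue, but the 6 adipocyte markers summed to at most 0.688 FPKM in any mouse.

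The level of the members differed widely. By geometric mean over the 8 mice, *Aqp1* stood highest at 296 FPKM, followed by *Aqp2* at 162, *Aqp3* at 42.0 and *Aqp6* at 37.2. *Fxyd4* followed at 9.57, then *Aqp4* at 4.69, *Aqp7* at 4.33, *Avpr2* at 3.24 and *Aqp11* at 2.89 FPKM. Each neighbour in this order was compared with the next within mice by a two-sided exact sign-flip permutation test, 8 comparisons with 0.00781 as the smallest p they allow. *Aqp1* exceeded *Aqp2*, *Aqp2* exceeded *Aqp3* and *Aqp6* exceeded *Fxyd4* in 8 of 8 mice (each exact p = 0.00781, adjusted p = 0.0208). *Fxyd4* exceeded *Aqp4* in 7 of 8 mice, which missed 0.05 after adjustment (exact p = 0.0312, adjusted p = 0.0625). *Aqp3* and *Aqp6* did not differ beyond their spread (exact p = 0.367), nor did *Aqp4* and *Aqp7*, *Aqp7* and *Avpr2*, or *Avpr2* and *Aqp11* (exact p from 0.117 to 0.656). The spread between mice was also unequal. The highest mouse was 11.6-fold above the lowest for *Aqp4*, 4.26-fold for *Aqp1* and 2.06-fold for *Aqp6*.

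**Figure D1:**
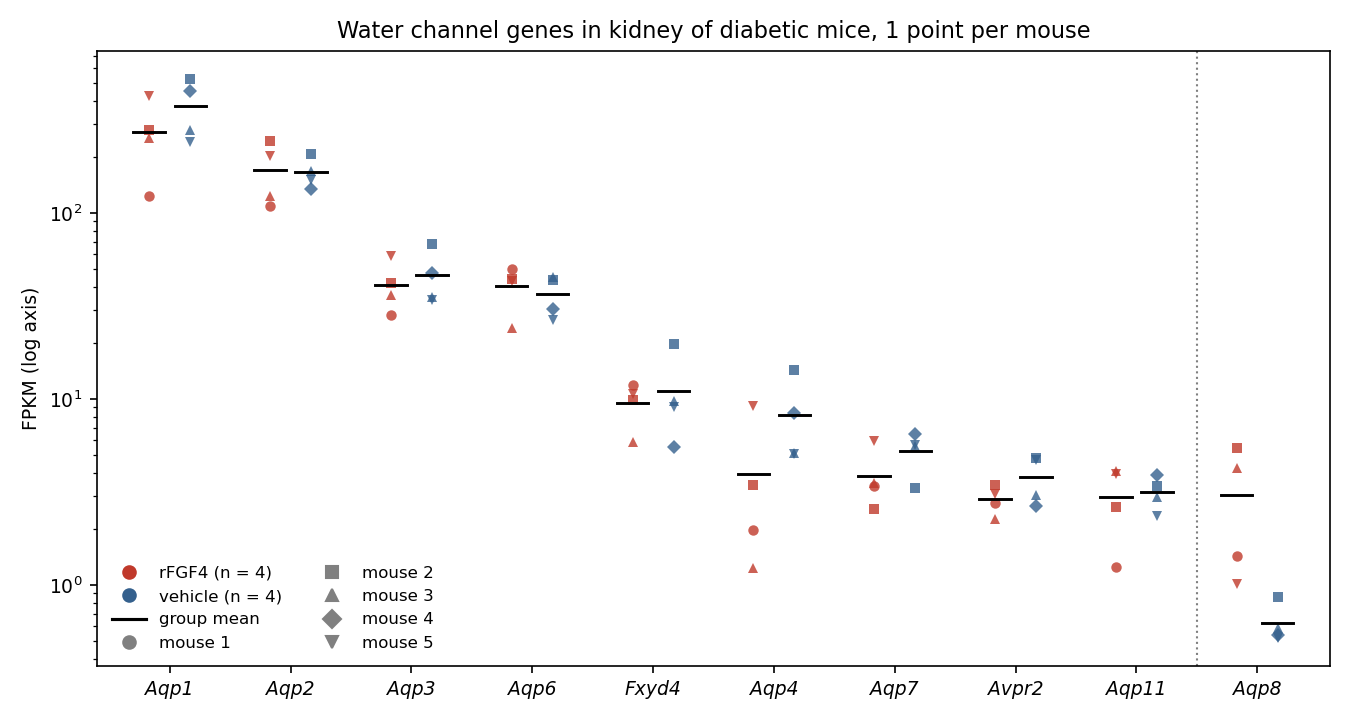
FPKM (log axis) of the 9 members, ordered by level, and of Aqp8, with 1 point per mouse, red for rFGF4 and blue for vehicle (n = 4 each), a symbol per mouse number and a bar at the group mean. The groups overlap for every member, with Aqp4 between 1.23 and 14.3 FPKM, while the 4 rFGF4 mice lie above the 4 vehicle mice for Aqp8.

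No member passed a test between the groups. None of the 9 had an unadjusted p under 0.05, where 1.06% of all tested genes did with lower and 3.56% with higher values in rFGF4-treated mice. None passed the threshold of the study's methods, which adds a fold change of at least 1.5 to the same unadjusted p and which 0.436% of genes passed downwards and 1.09% upwards. The 2 groups overlapped for all 9, whereas 0.667% of genes had all rFGF4 mice below all vehicle mice and 2.66% all above. The estimates were below 0 for 8 of the 9, and for 7 of the 9 when libraries were scaled to the sum over genes that are not mitochondrially encoded, which turned *Aqp2*. The count was 5 of 9 without rFGF4 mouse 1, 5 of 9 without vehicle mouse 2 and 9 of 9 without vehicle mouse 5. The direction of the background also moved with scaling. Of the 700 genes with an unadjusted p under 0.05, 161 were lower, against 370 of 710 with a common median ratio and 87 of 1130 with the scaling to genes that are not mitochondrially encoded. The median of the 9 members was -0.16, against 0.09 over all tested genes, of which 32.9% were below 0. With a common median ratio the 2 medians were -0.28 and -0.011, and with the scaling to genes that are not mitochondrially encoded they were -0.058 and 0.16. The adjusted p of every member was 0.918 or more. The labels name kidney as the tissue, the study's methods name the renal cortex for RNA extraction, and the text on the sequencing does not say which was used, which bears on genes of the medulla such as *Aqp4*. In bulk RNA, fewer cells of a type and less RNA per cell cannot be told apart. With 1 library per mouse, these p-values measure the spread between mice.

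**Figure D2:**
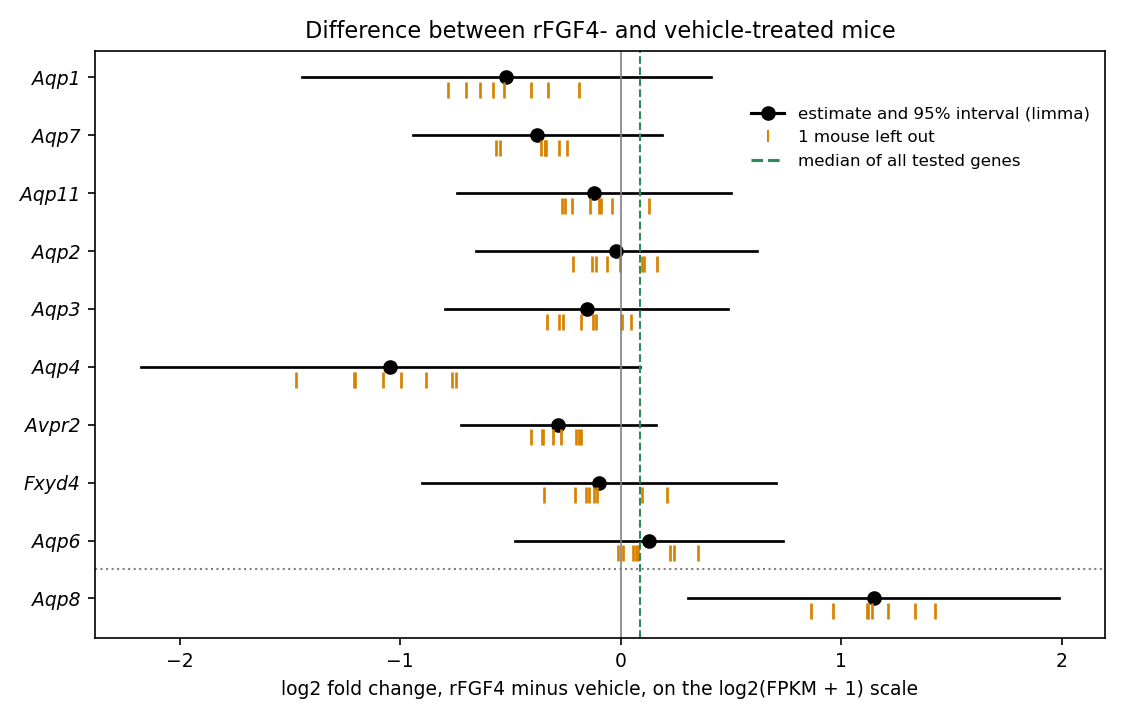
Log2 fold change (rFGF4 minus vehicle, log2(FPKM + 1) scale) of the 9 members and, below the dotted line, Aqp8. Points and lines are limma estimates with 95% intervals, orange ticks the estimates with 1 mouse left out and the dashed line the median of all tested genes (0.09). The intervals of all 9 members include 0, and that of Aqp8 runs from 0.31 to 1.99.

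*Aqp1* (ENSMUSG00000004655, chr6:55336432-55348555) encodes the channel of the proximal tubule. Its FPKM was 124, 280, 252 and 427 in rFGF4 mice 1, 2, 3 and 5 and 526, 277, 450 and 242 in vehicle mice 2, 3, 4 and 5. The lowest value was that of rFGF4 mouse 1, and the other 3 rFGF4 mice lay within the vehicle range. The group means were 271 ± 125 and 374 ± 136 FPKM (SD, n = 4 each), a log2 fold change of -0.52 (standard error 0.40, limma p = 0.234, exact permutation p = 0.314). Without rFGF4 mouse 1 the log2 fold change was -0.19, without vehicle mouse 2 it was -0.33, and without rFGF4 mouse 5 it was -0.78. The 95% interval of the fold change was 0.367 to 1.33, so these 8 mice allow both a fall of over 1.5-fold and a small rise. *Aqp1* was then set against the mean log2 level of the 12 proximal tubule markers in the same mouse, which took the standard deviation over mice from 0.66 to 0.34. The same step raised it from 0.40 to 0.73 for *Aqp7*, and over each member's own markers it also rose for *Aqp6* and *Avpr2*. Relative to these markers rFGF4 mouse 1 was no longer low, at 1.42 against 0.40 to 1.46 in the other 7 mice, and the difference between groups was -0.20 (exact permutation p = 0.543).

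*Aqp7* (ENSMUSG00000028427), a glycerol and water channel of the late proximal tubule, was far lower. It measured 3.38, 2.55, 3.55 and 5.95 FPKM in the rFGF4 mice and 3.32, 5.57, 6.48 and 5.62 in the vehicle mice, in the same order of mouse numbers. The highest rFGF4 value was that of mouse 5 and the lowest vehicle value that of mouse 2. The log2 fold change was -0.38 (standard error 0.25, limma p = 0.162, exact permutation p = 0.286), and it was -0.56, past an unadjusted p of 0.05, without rFGF4 mouse 5. *Aqp11* (ENSMUSG00000042797, chr7:97724006-97738289) encodes an intracellular channel of the proximal tubule, whose loss in mice gives polycystic kidneys. Its FPKM was 1.25, 2.61, 4.09 and 3.94 in the rFGF4 mice and 3.41, 2.98, 3.88 and 2.35 in the vehicle mice, with the lowest and the highest value both in rFGF4-treated mice. The log2 fold change of *Aqp11* was -0.12 (standard error 0.27, limma p = 0.663, exact permutation p = 0.8) and turned to 0.13 without rFGF4 mouse 1. Relative to the proximal tubule markers *Aqp7* differed by -0.06 (exact permutation p = 1.0) and *Aqp11* by 0.20 (exact permutation p = 0.514). With 1 mouse left out these differences ran from -0.48 to 0.19 for *Aqp7* and from -0.0061 to 0.34 for *Aqp11*.

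*Aqp2*, the vasopressin-regulated luminal channel, measured 109, 243, 124 and 203 FPKM in the rFGF4 mice and 208, 169, 135 and 149 in the vehicle mice. The rFGF4 mice held both the highest and the 2 lowest values. The means were 170 ± 63.8 and 165 ± 31.5 FPKM, a log2 fold change of -0.02 (standard error 0.28, limma p = 0.943, exact permutation p = 0.914) with a 95% interval of 0.633 to 1.53 on the fold scale. Set against 9 principal cell markers, which include the epithelial sodium channel subunits *Scnn1a*, *Scnn1b* and *Scnn1g*, *Aqp2* differed by 0.03 between the groups (exact permutation p = 0.8). *Aqp3*, which passes water and glycerol across the basolateral membrane, measured 28.2, 41.9, 36.2 and 58.4 FPKM in the rFGF4 mice and 68.1, 35.4, 47.3 and 34.0 in the vehicle mice. Its groups overlapped widely, and the log2 fold change was -0.16 (standard error 0.28, limma p = 0.594, exact permutation p = 0.657). It turned to 0.047 without vehicle mouse 2 and to 0.006 without rFGF4 mouse 1.

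*Aqp4* (ENSMUSG00000024411), the second basolateral water channel, which is more abundant in the inner medulla than in the cortex, had the lowest estimate of the 9. It measured 1.97, 3.43, 1.23 and 9.11 FPKM in the rFGF4 mice and 14.3, 5.14, 8.41 and 5.07 in the vehicle mice. In 3 of the 4 rFGF4 mice it lay below every vehicle mouse, and rFGF4 mouse 5 was second highest of all 8. The means were 3.93 ± 3.57 and 8.22 ± 4.32 FPKM, a log2 fold change of -1.04 (standard error 0.49, limma p = 0.0659, exact permutation p = 0.143). The interval of the fold change ran from 0.221 to 1.06. Without rFGF4 mouse 5 the log2 fold change was -1.47, so that mouse decided whether *Aqp4* passed an unadjusted p of 0.05, and 1430 genes did so without it against 700 with it. Relative to the principal cell markers the difference was -0.996 (exact permutation p = 0.0857). Red blood cell markers varied with *Aqp4*, though not with it alone. Their 5 genes summed to 120, 1556, 437 and 2657 FPKM in the rFGF4 mice and 3793, 4325, 2700 and 1139 in the vehicle mice. They were lowest in the 2 mice in which *Aqp4* was lowest, and their part in the result was not tested. Over the 8 mice on the log2(FPKM + 1) scale, Pearson's r of *Hba-a1*, 1 of the 5, was 0.81 with *Aqp4* and 0.86 with *Aqp1*. With the other members it ran from 0.090 for *Aqp6* to 0.70 for *Aqp3*. The mitochondrial share of FPKM was 19.0%, 24.7%, 29.8% and 36.0% in the rFGF4 mice and 38.4%, 34.2%, 37.2% and 24.4% in the vehicle mice, lower in the 3 rFGF4 mice with low *Aqp4* than in rFGF4 mouse 5, and its part was not tested either. The endothelial markers, 8 genes, summed to 57.6 to 95.04 FPKM in the rFGF4 and 72.7 to 108 in the vehicle mice.

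*Avpr2* (ENSMUSG00000031390, chrX:73892102-73895502) encodes the V2 receptor, the start of the pathway. Its FPKM was 2.76, 3.45, 2.27 and 3.07 in the rFGF4 mice and 4.81, 3.05, 2.64 and 4.70 in the vehicle mice. Vehicle mice 2 and 5 were above all rFGF4 mice, and the other 2 vehicle mice were among them. The means were 2.89 ± 0.497 and 3.80 ± 1.12 FPKM, a log2 fold change of -0.28 (standard error 0.19, limma p = 0.179, exact permutation p = 0.257), or -0.18 without vehicle mouse 2. Endothelial markers moved with this result, since their 8 genes summed to 103 and 108 FPKM in vehicle mice 2 and 5, to 72.7 and 74.3 in vehicle mice 3 and 4 and to at most 95.04 in an rFGF4 mouse, and their part was not tested. Exons of *Avpr2* overlap those of *Arhgap4* on the opposite strand, and counting by strand is not stated, so reads of the 2 genes may be mixed in these values. *Fxyd4* (ENSMUSG00000004988, chr6:117933559-117937692), also called CHIF, modulates the sodium pump in the collecting duct. It measured 11.9, 9.80, 5.89 and 10.6 FPKM in the rFGF4 mice and 19.8, 9.73, 5.54 and 9.02 in the vehicle mice, with a log2 fold change of -0.10 (standard error 0.35, limma p = 0.788, exact permutation p = 0.971) that was 0.21 without vehicle mouse 2. Urothelium markers were lowest in the 2 mice lowest in *Fxyd4*. Their 6 genes summed to 1.68 FPKM in rFGF4 mouse 3 and 6.30 in vehicle mouse 4, and to 17.6 to 62.3 in the other 6 mice. Among those 6 the likeness did not hold throughout, since vehicle mouse 5 was highest in the markers and lowest in *Fxyd4*, at 9.02 FPKM. The part of these markers was not tested.

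*Aqp6*, an anion-conducting channel inside acid-secreting intercalated cells, was the only member with an estimate above 0. Its FPKM was 49.7, 44.0, 24.1 and 43.3 in the rFGF4 mice and 43.6, 45.3, 30.5 and 26.4 in the vehicle mice. The highest and the lowest value were both in rFGF4-treated mice, and the log2 fold change was 0.13 (standard error 0.26, limma p = 0.642, exact permutation p = 0.771), or -0.01 without vehicle mouse 5. Set against 8 intercalated cell markers, among them the proton pump subunit gene *Atp6v1b1* and the anion exchanger gene *Slc4a1*, it differed by 0.38 (exact permutation p = 0.229), or by 0.18 without rFGF4 mouse 1. Red blood cells also express *Slc4a1*, and against the 7 markers without it the difference was 0.35 (exact permutation p = 0.314). Over the 9 members compared in this way with their own cell type, the lowest p was that of *Aqp4*, with an adjusted p of 0.771.

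**Figure D3:**
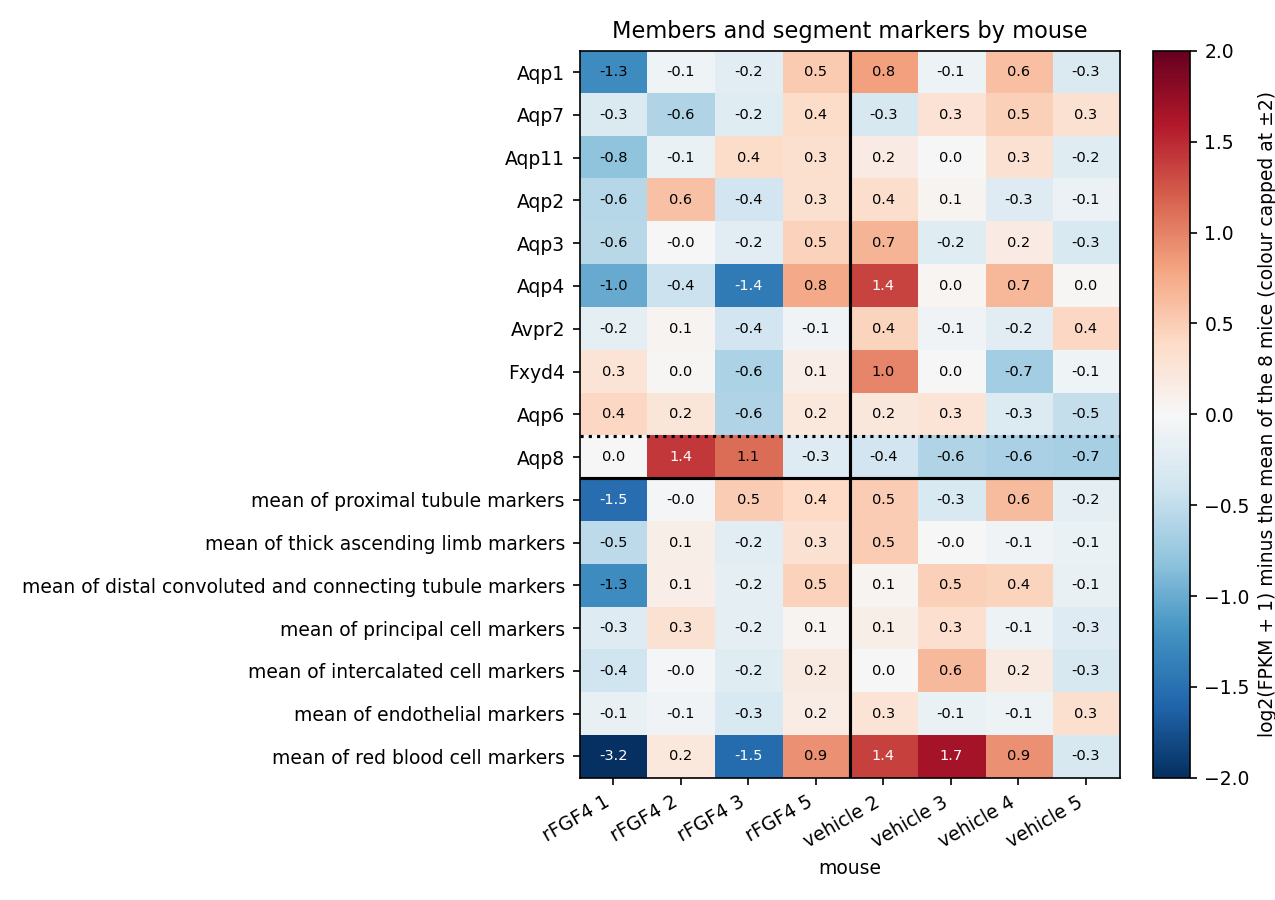
Deviation of log2(FPKM + 1) from the mean of the 8 mice for the 9 members, Aqp8 and the mean of 7 marker lists, with colours capped at 2 in either direction and the value printed in each cell. The rFGF4 mouse numbered 1 is low in Aqp1 and in the proximal tubule markers together, and Aqp4 is lowest in rFGF4 mice 1 and 3, where the red blood cell markers are lowest too.

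Of the 5 remaining aquaporin genes in the table, only *Aqp8* was expressed enough to be tested. *Aqp8* (ENSMUSG00000030762, chr7:123462291-123468004), a channel for water and hydrogen peroxide, measured 1.43, 5.45, 4.26 and 1.01 FPKM in the rFGF4 mice and 0.858, 0.590, 0.539 and 0.520 in the vehicle mice. All 4 rFGF4 mice were above all 4 vehicle mice, by a wide margin in mice 2 and 3. The means were 3.04 ± 2.16 and 0.627 ± 0.157 FPKM, a log2 fold change of 1.15 with a pseudocount of 1 (standard error 0.37, limma p = 0.0134, adjusted p = 0.918, exact permutation p = 0.0286, the smallest that 4 against 4 allows). It thus passed the study's threshold, as 1.09% of genes did upwards, and failed adjustment over all genes. With a pseudocount of 0.1 the log2 fold change was 1.82. Leaving out any 1 of the mice gave a log2 fold change between 0.86 and 1.42, with an unadjusted p under 0.05 each time. *Aqp5*, between *Aqp2* and *Aqp6* on the chromosome, reached at most 0.239 FPKM in any mouse, *Aqp9* 0.571 and *Mip* 0.394, and *Aqp12* was listed at 0 throughout.

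Expressed as a share of the summed FPKM of all aquaporins in a mouse, *Aqp1* made up 38.7% to 66.0% and *Aqp2* 19.8% to 38.9%. *Aqp3* held 6.54% to 8.84%. *Aqp8* held 0.601% ± 0.381 in the rFGF4 and 0.0996% ± 0.0148 in the vehicle mice (SD, n = 4 each, exact permutation p = 0.0286, adjusted p = 0.314 over 11 aquaporins). No other share had a p under 0.05 (exact permutation, 0.0857 to 0.857). The sum itself was 536 ± 191 FPKM with rFGF4 and 639 ± 177 with vehicle (exact permutation p = 0.457).

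The genes around the members were described through lists. Of the other receptors for vasopressin and oxytocin, *Avpr1a*, the V1a receptor, was at 1.58 to 3.62 FPKM, against 2.27 to 4.81 for *Avpr2*, with a log2 fold change of 0.15 between groups that overlapped, which ran from 0.044 without vehicle mouse 2 to 0.33 without vehicle mouse 3 when 1 mouse was left out. *Oxtr* reached 1.27 FPKM at most and *Avpr1b* was listed at 0. Among 16 genes of cyclic AMP and protein kinase A signaling, 14 were tested, 1 had an unadjusted p under 0.05 and was higher with rFGF4, and 0 were lower. Over all tested genes 3.56% were higher and 1.06% lower at this level. This was *Prkar2a*, a regulatory subunit of protein kinase A, with 7.67, 8.54, 8.41 and 7.28 FPKM in the rFGF4 mice and 5.73, 5.12, 6.59 and 5.49 in the vehicle mice. Its groups did not overlap, and the log2 fold change was 0.42 (standard error 0.12, limma p = 0.00635, exact permutation p = 0.0286, adjusted p = 0.918). With libraries scaled to a common median ratio it was 0.30 and missed an unadjusted p of 0.05. The stimulatory G protein gene *Gnas* and the adenylyl cyclase gene *Adcy6* had log2 fold changes of -0.08 and 0.15.

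All 19 genes of AQP2 vesicle trafficking and turnover were tested, and 2 were higher at an unadjusted p under 0.05, with 0 lower, beside 3.56% and 1.06% of all tested genes. Their median log2 fold change was 0.23, against 0.09 over all tested genes. Without rFGF4 mouse 1, in which the mean log2 level of the list was highest, the medians were 0.11 and 0.010, and with libraries scaled to a common median ratio they were 0.10 and -0.011. The mean log2 level was 4.94 and 4.72 in rFGF4 mice 1 and 2, where the mitochondrial share of FPKM was 19.0% and 24.7%. In the other mice the level was 4.38 to 4.58 and the share 24.4% to 38.4%. The part of the mitochondrial share was not tested. *Cltc*, the heavy chain of the clathrin coat with which AQP2 is taken back into the cell, was 27.9 ± 4.41 FPKM with rFGF4 and 19.3 ± 3.64 with vehicle, a log2 fold change of 0.52 (standard error 0.18, limma p = 0.0197, exact permutation p = 0.0286). The lowest rFGF4 mouse, at 21.6 FPKM, was just above the highest vehicle mouse at 21.4. *Snap23*, a membrane fusion protein, had a log2 fold change of 0.36 (limma p = 0.035, exact permutation p = 0.0286), and it lost this level in 8 of 16 alternative settings, against 4 of 16 for *Cltc*. The adjusted p of both genes was 0.918.

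The next counts stand beside the same 3.56% of all tested genes that were higher and 1.06% that were lower. Of 11 transcription factors of the collecting duct, 10 were tested and 1 was higher. *Tfcp2l1*, which is needed for intercalated cells to form, had a log2 fold change of 0.45 (standard error 0.15, limma p = 0.016, exact permutation p = 0.0286, adjusted p = 0.918), with 41.9 ± 4.95 FPKM in the rFGF4 and 30.5 ± 5.04 in the vehicle mice, and 0.33, short of an unadjusted p of 0.05, under the median ratio scaling. The 7 tested genes of osmolyte and urea transport held 1 that was higher, the taurine transporter gene *Slc6a6*, with 69.6 ± 10.2 against 48.0 ± 6.80 FPKM and a log2 fold change of 0.53 (standard error 0.15, limma p = 0.00788, exact permutation p = 0.0286, adjusted p = 0.918). That value was 0.40 under the same scaling and missed an unadjusted p of 0.05 too. Of 8 genes for FXYD proteins and sodium pump subunits 7 were tested and 0 passed, and their log2 fold changes lay between -0.17 and 0.22. Of the 9 principal cell markers 8 were tested and 1 was lower, the matrix protein gene *Npnt*, with a log2 fold change of -0.30 (limma p = 0.0401, exact permutation p = 0.0571) and groups that overlapped. It missed an unadjusted p of 0.05 in 11 of 16 alternative settings. The intercalated cell, proximal tubule, thick ascending limb, distal tubule, endothelial, red blood cell, urothelium and lymphocyte lists held 0 genes with an unadjusted p under 0.05 by limma.

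How the members varied together was described over the 8 mice with Pearson's r on the log2(FPKM + 1) scale. Of 36 pairs, 28 had an r above 0, and the median r was 0.38. All pairs share the same libraries and their scaling. One pair passed adjustment over the 36, *Aqp1* and *Aqp3* (r = 0.92, exact permutation p = 0.000496, adjusted p = 0.0179, Spearman's rho = 0.95, exact permutation p = 0.00114, adjusted p = 0.0411). The value was 0.89 without rFGF4 mouse 1 and vehicle mouse 2, the mice farthest from the median, 0.94 within groups and 0.96 with libraries scaled to a common median ratio. Vehicle mouse 2, rFGF4 mouse 5 and vehicle mouse 4 were the 3 highest mice for both genes, and rFGF4 mouse 1 was the lowest for both. The mitochondrial share of FPKM was 38.4%, 36.0% and 37.2% in those 3 mice and 19.0% in rFGF4 mouse 1, and its part in this relation was not tested.

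The genes most like a member over the 8 mice were taken as the 5 with the highest r. For *Aqp1* these were *Ppargc1a* (r = 0.99), a coactivator of mitochondrial gene expression, *Sdr39u1*, *Mpc1-ps*, *Iqsec2* and *Acsm5*, and 207 genes had an r of at least 0.9. *Ppargc1a* was highest in vehicle mouse 2, at 9.92 FPKM, and lowest in rFGF4 mouse 1, the same extremes as for *Aqp1*. For *Aqp2* they were *Gm2395*, *Gm13421*, *Cyp2d37-ps*, *Gm13075* and *Mrps6* (r from 0.92 to 0.95), with 7 genes at 0.9 or more, and the first 4 of the 5 were at 3.99 FPKM or less in every mouse. *Aqp4* was added after its values had been seen. Its nearest gene was *Slc6a12* (r = 0.97), the betaine transporter of medullary cells, and *Clec14a*, *Sap30* and *Fndc9* were also among the 5, with 46 genes at 0.9 or more. *Slc6a12* measured 0.847, 2.37, 0.862 and 6.90 FPKM in the rFGF4 mice and 7.11, 2.96, 4.32 and 3.01 in the vehicle mice. It was chosen for this likeness, so that rFGF4 mouse 5 stood apart from the other 3 of its group in both genes is a description. Its log2 fold change of -0.73 (limma p = 0.166, exact permutation p = 0.2) was -1.18, past an unadjusted p of 0.05, without that mouse. Because *Slc6a12* was picked for following *Aqp4* over the same mice, this is no separate test of the change in *Aqp4*.

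**Figure D4:**
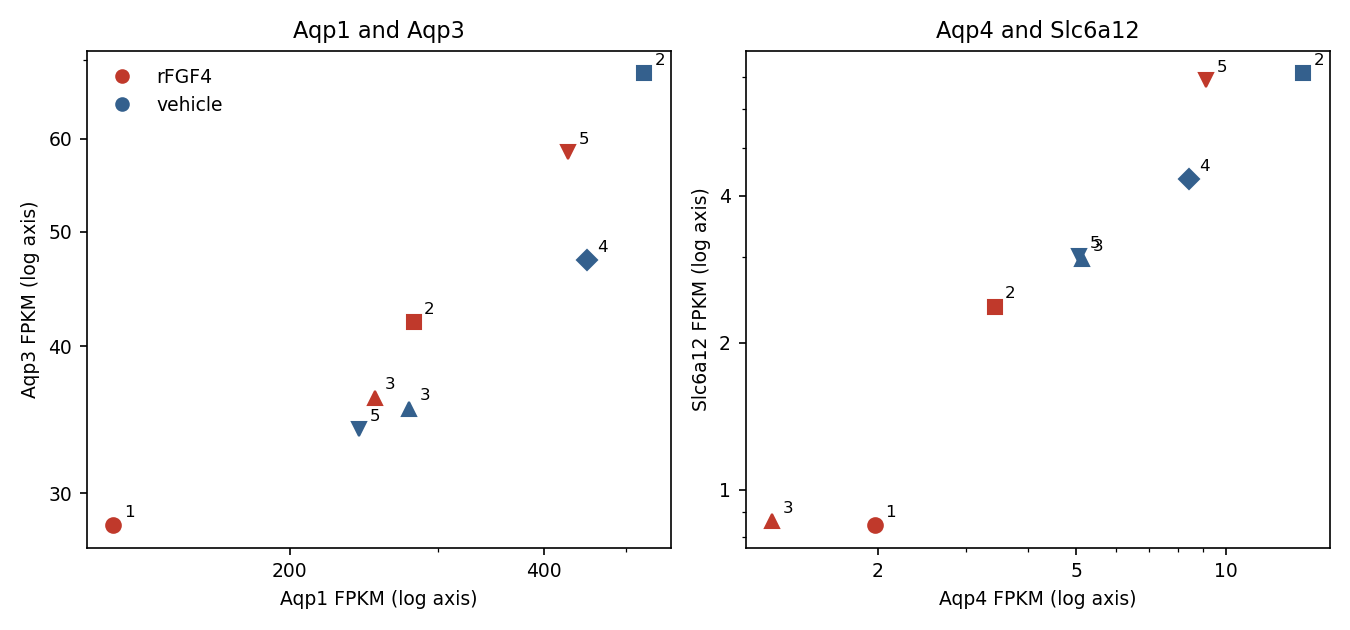
FPKM of Aqp3 against Aqp1 (left) and of Slc6a12 against Aqp4 (right), both axes log, with 1 point per mouse, red for rFGF4 and blue for vehicle, labelled by mouse number. The 2 genes rise together over both groups in each panel (r = 0.92 and 0.97 on the log2(FPKM + 1) scale), with rFGF4 mouse 5 among the highest vehicle mice in both.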

How the data were processed

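Total kidney RNA of 4 rFGF4-treated and 4 vehicle-treated diabetic mice was enriched for poly(A) RNA and sequenced paired-end, 1 library per mouse. The authors assembled transcripts with StringTie and deposited 1 table of FPKM per gene. The submitters' processing notes name HISAT2 2.0, StringTie 1.3.0, Bowtie 0.12.2 and the build mm8, whereas 99.5% of the identifiers (55141) are in GENCODE M21 on GRCm38, from which coordinates were taken. The table also holds the authors' fold changes, p-values and q-values, which were not used. A value of 0.0001 stands in place of 0 and was set to 0. edgeR, which the authors used, needs counts, so log2(FPKM + 1) was compared with limma 3.58.1 in R 4.3.3 (eBayes with a trend), for every gene that reached 0.5 FPKM in 4 or more mice. Segment-relative levels and single genes were compared by two-sided exact permutation tests (Python 3.11.15, scipy 1.17.1). The fit was also run on simulated data, with noise drawn independently for each gene and mouse. Such data lack the variation that genes share between these mice, so the run does not cover it. Alternatives were a pseudocount of 0.1, no filter, 2 scalings, no trend, the exact test in place of limma, a block for mouse numbers and each mouse left out. The analyses of segment-relative levels under alternatives, of median ratio scaling for correlations, of aquaporin shares, of list medians by setting and of the genes most like *Aqp4*, the value of *Aqp6* without *Slc4a1*, the alternatives for *Aqp8* and the list genes, and the fits over mice 2, 3 and 5 without the block and without both rFGF4 mouse 1 and vehicle mouse 5, were added after seeing the data. The members and lists were chosen with earlier results of these data known. All members, the other aquaporins and receptors, up to 3 higher and 3 lower list genes with an unadjusted p under 0.05, and the 5 genes most like *Aqp1* and *Aqp2* are named by rule. *Gnas*, *Adcy6*, *Igkc* and single markers are named outside it, as examples. The result of 1 of the genes most like *Aqp4* is not reported here. Figures were drawn with matplotlib 3.10.9.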

Additional observations from a re-analysis of the deposited data

Results flagged for a closer look

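Among 64 groups of 4 mice, 3 held a mouse far from the other 3, where chance gives about 1 in 20. *Cltc* in vehicle mouse 3 was at 3.89 on the log2(FPKM + 1) scale against 4.45 to 4.49 in the other vehicle mice, and its gap was 0.930 of the group's range. *Aqp11* relative to the proximal tubule markers was -4.37 in rFGF4 mouse 1 against -5.23 to -5.17 in the other rFGF4 mice, with a gap of 0.921 of the range. *Aqp6* made up 15.6% of the summed aquaporin FPKM in rFGF4 mouse 1 against 5.36% to 7.06% in the others of its group, with a gap of 0.833 of the range.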

How the results depend on the processing

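No member passed an unadjusted p of 0.05 or the study's threshold in the alternatives that were run, except without rFGF4 mouse 5, when *Aqp4* and *Aqp7* passed the first and *Aqp4* the second. With each mouse left out, the count was thus 0 to 2 and 0 to 1, the median log2 fold change of the members was -0.31 to -0.09, and 5 to 9 of the 9 were below 0. The log2 fold changes of *Aqp1*, *Aqp4*, *Aqp7* and *Avpr2* kept their sign in all 16 alternatives and that of *Aqp8* kept its sign and an unadjusted p under 0.05. Not all 16 are separate checks of the sign. Dropping the filter or the trend changes the p-value and not the estimate, and the fits with and without the block share the same estimate. Leaving out 1 mouse gave -0.78 to -0.19 for *Aqp1*, -1.47 to -0.75 for *Aqp4*, -0.56 to -0.24 for *Aqp7*, -0.41 to -0.18 for *Avpr2*, -0.22 to 0.17 for *Aqp2*, -0.34 to 0.047 for *Aqp3*, -0.010 to 0.35 for *Aqp6*, -0.27 to 0.13 for *Aqp11* and -0.35 to 0.21 for *Fxyd4*. Relative to segment markers it gave -0.32 to 0.017 for *Aqp1*, -0.060 to 0.13 for *Aqp2*, -0.32 to 0.064 for *Aqp3*, -1.40 to -0.75 for *Aqp4*, 0.18 to 0.57 for *Aqp6*, -0.48 to 0.19 for *Aqp7*, -0.41 to -0.049 for *Avpr2*, -0.0061 to 0.34 for *Aqp11* and -0.26 to 0.23 for *Fxyd4*. Scaling to genes that are not mitochondrially encoded gave 0.079 for *Aqp2*. Without both rFGF4 mouse 1 and vehicle mouse 5 the values were 0.12 for *Aqp2*, -0.13 for *Aqp6* and 0.028 for *Aqp11*. The shared mouse numbers are not described as pairs. Deviations of same-numbered mice from their group means correlated at -0.23, -0.16 and -0.39. These deviations depend on the other mice of each group, so they cannot settle whether the numbers pair the mice. Over mice 2, 3 and 5, with or without the replicate block, the values were -0.074 for *Aqp1*, 0.074 for *Aqp2*, 0.035 for *Aqp3*, -0.84 for *Aqp4*, -0.060 for *Aqp6*, -0.25 for *Aqp7*, 0.21 for *Aqp11*, -0.39 for *Avpr2* and -0.46 for *Fxyd4*. The block called 395 genes at an unadjusted p under 0.05 against 631 without it, and 0 members in both. Over all genes the count at that level was 700, and it was 1130 with the scaling to genes that are not mitochondrially encoded, 1232 of 30244 genes without the filter, and 431 to 1430 with 1 mouse left out (lowest without rFGF4 mouse 2, highest without rFGF4 mouse 5). The causes were not tested. With 4 mice a group, the width of the printed intervals limits what these data show.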
